A study of Oryza sativa with 15 samples.

Results

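The regions described here are the CpG regions that lie upstream of genes with an EPlOSAG identifier, the Ensembl Plants identifier of noncoding rice genes. They were taken from 3 lists of differentially methylated regions, 1 for each rice line compared with its wild type, by 3 criteria: the sequence class CpG, the feature upstream, and a gene identifier that starts with EPlOSAG. The lists for CK, for SDWT and for the *pOsNAR2.1-OsNAR2.1* plants, called the transgenic line here, held 1027, 568 and 737 such regions, 2332 of the 11392 listed regions in all, upstream of 1931 different genes. Methylation was measured by whole-genome bisulfite sequencing of the DNA of 10-day-old seedlings, with 3 libraries per group. WYJ7 is the wild-type cultivar, labelled wuyujing 7, and was not passed through tissue culture. CK plants were regenerated without a transgene from 3 independent calli, were moved from rooting medium to water, and were sequenced in that generation, T0, so that regeneration and growth history cannot be told apart in CK. *pOsNAR2.1-OsNAR2.1* is a T4 line that carries an additional copy of OsNAR2.1, a partner protein of nitrate transporters, under the promoter of the same gene. SDWT, labelled FP, is a T4 line without the transgene that segregated from the same regenerated plant as *pOsNAR2.1-OsNAR2.1*, so each of these lines stands for 1 line only. The libraries of a line are separate samples, and the spread between them may be partly technical.

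In plants, cytosines followed by guanine are methylated mainly by the maintenance methyltransferase MET1, which copies the mark to the new strand after each replication, so that a gain or loss at such a site can persist through cell divisions and generations. Regions between genes hold much transposon sequence, and RNA-directed DNA methylation acts on many such sites in rice. Methylation upstream of a gene is frequently associated with low transcription, and neither transcripts nor transposons were measured here. The identifiers do not say which kind of noncoding RNA a gene encodes, and 0 of the 1931 were found in the RefSeq gene table, so the members could not be sorted into tRNA, microRNA or other classes. As a check of the label, no list held an intronic region with an EPlOSAG identifier, while 75, 22 and 45 CpG regions of the CK, SDWT and transgenic lists lay in exons of such genes. No genome was used here, and the regions are given by their positions in IRGSP-1.0.

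The lists hold regions that the authors called as different between a line and WYJ7. The difference between line and wild type therefore belongs to the choice of the regions, and its direction and size are described below without a test. The methylation level of a region is the mean level of its cytosines in percent, and a difference is the mean of the 3 libraries of a line minus the mean of the 3 WYJ7 libraries, in percentage points. The same WYJ7 libraries were used for the 3 lines. The number of CpGs of a region is the deposited value, and it need not be a count of CpG sites. The narrowest listed CpG region was 4 bp wide, too short for 3 sites, the fewest listed. Identical positions upstream of EPlOSAG00000017257 had 4 CpGs in the CK list and 6 in the SDWT list. Read depth per region is unknown, so no counting error can be attached to a level. A level of exactly 0 can stand for no methylated reads or for a value that was not obtained, and the lists do not tell these apart: 5 regions of the transgenic line were listed at 0 in all 6 libraries.

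The upstream regions of noncoding genes took the opposite balance in CK and in the transgenic line. In CK, 301 of 1027 regions (29.3%) had a higher mean level than WYJ7 and 726 a lower one, against 28.3% higher among all CpG regions of that list. In SDWT, 277 of 568 regions (48.8%) were higher and 291 lower, against 51.5% higher in the whole list. This near-even balance turned to 53.3% higher among SDWT regions with at least 5 CpGs, and was 50% where the WYJ7 libraries lay within 20 points of each other, an alternative chosen after seeing the data. In *pOsNAR2.1-OsNAR2.1*, 568 of 737 regions (77.1%) were higher, 164 were lower and 5 were equal, against 78.0% higher in the whole list. The balance of each line was thus near that of all its CpG regions. Upstream regions of the other genes had 33.4%, 56.1% and 81.6% of regions higher in CK, SDWT and the transgenic line, in each list a few percentage points above the noncoding genes, and this difference was not tested.

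The size of the differences was alike in the 3 lists. The median absolute difference was 27.6 points in CK, 26.8 in SDWT and 27.4 in the transgenic line. Differences above 50 points were found in 61, 36 and 57 regions, and differences below 10 points in 33, 21 and 38. All 3 CK libraries lay outside the range of the 3 WYJ7 libraries, on 1 side, in 606 regions (59.0%), against 61.2% of all CpG regions of the list. The corresponding counts were 401 regions (70.6%) in SDWT, against 69.2%, and 556 regions (75.4%) in *pOsNAR2.1-OsNAR2.1*, against 74.6%. Non-overlap was therefore about as common upstream of noncoding genes as in the whole list.

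**Figure D1:**
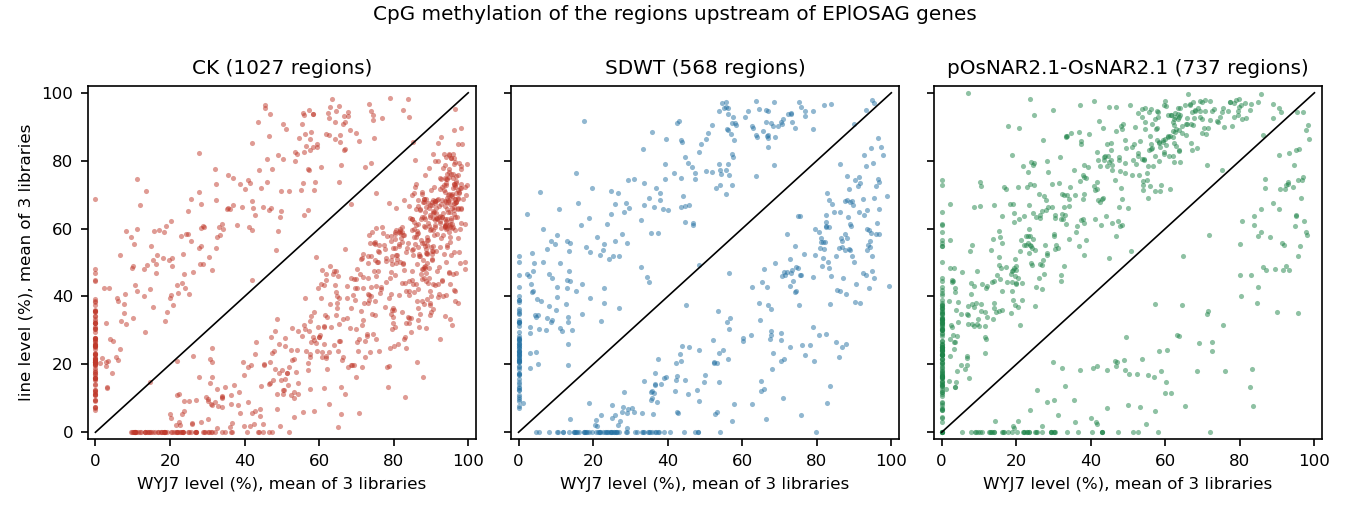
Each point is 1 region upstream of an EPlOSAG gene, with its mean WYJ7 level in percent on the horizontal axis and the mean level of the line in percent on the vertical axis (3 libraries each); the line marks equal levels. In CK 726 of 1027 regions lie below the line, and in *pOsNAR2.1-OsNAR2.1* 568 of 737 lie above it.

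The WYJ7 level of the members differed between the lists, as it did for all CpG regions. The median WYJ7 level was 65.3% for the CK regions, 43.4% for the SDWT regions and 32.4% for the transgenic regions, against 70.3%, 40.8% and 35.5% for all CpG regions and 65.9%, 37.5% and 33.2% for upstream regions of other genes. Regions above 80% in WYJ7 made up 373 of the CK regions (36.3%), 105 of the SDWT regions (18.5%) and 71 of the transgenic regions (9.63%). Of these highly methylated regions, 369, 99 and 58 were lower in the line. For upstream regions of other genes the counts were similar, with 347 of 352, 81 of 85 and 51 of 62 lower.

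Between 20% and 80% in WYJ7, the lists had different shares of higher regions. In this range 143 of 465 CK regions (30.8%), 134 of 303 SDWT regions (44.2%) and 317 of 402 transgenic regions (78.9%) were higher than WYJ7. The upstream regions of other genes in the same range had 35.4%, 51.6% and 81.9% higher. Below 20%, 154 of 189 CK regions, 137 of 160 SDWT regions and 238 of 264 transgenic regions were higher, and of the upstream regions of other genes 165 of 189, 180 of 214 and 296 of 316 were. A region below 20% can fall by less than 20 points, so its direction is limited by the scale in the same way. At 97, 69 and 127 regions all WYJ7 libraries were at 0, and at 73, 64 and 52 regions all libraries of the line were at 0.

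**Figure D2:**
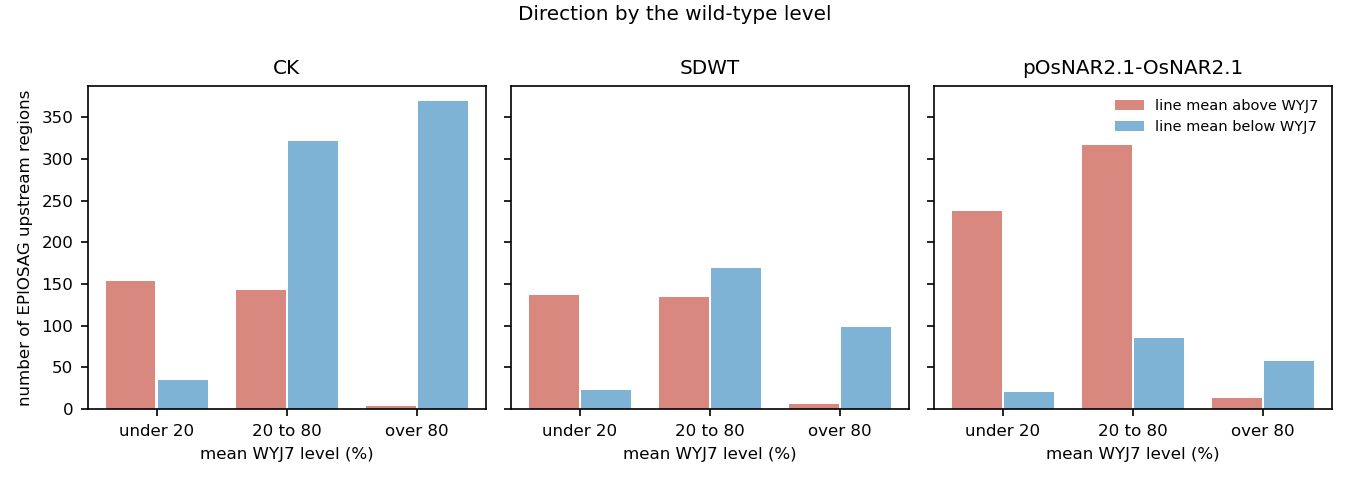
Bars give the number of EPlOSAG upstream regions with a line mean above or below the WYJ7 mean, split by the mean WYJ7 level in percent. Nearly all CK regions that started over 80% were lower (369 of 373), and in the middle range most CK regions were lower (322 of 465) while most *pOsNAR2.1-OsNAR2.1* regions were higher (317 of 402).

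CK differed from the other lines in the spread between its own libraries. The median SD of the 3 CK libraries was 15.2 points, compared with 5.37 for WYJ7 in the same regions, while the SDWT and transgenic libraries had 8.39 and 7.26. The CK libraries spanned more than 40 points in 346 regions (33.7%), against 75 regions (13.2%) in SDWT and 65 (8.82%) in the transgenic line. Most of the spread lay between replicate 2 and the others. CK replicates 1 and 3 differed from each other by a median of 8.61 points, whereas replicate 2 differed from them by 21.1 and 20.8 points. For upstream regions of other genes the medians were 7.41 points and, for replicate 2, 20.52 and 20.48 points. In the whole CK list the libraries spanned more than 40 points in 32.5% of CpG regions, so the wide spread was not confined to noncoding genes. The shares in the whole SDWT and transgenic lists were 12.7% and 8.38%. Leaving out a library makes non-overlap more frequent by construction. The number of non-overlapping regions was 606 with all libraries, 863 without CK replicate 2, 640 and 651 without CK replicates 1 and 3, and 654 to 672 without 1 of the WYJ7 libraries. The same counts over all CpG regions of the list are not given here, so nothing particular to noncoding genes is read from these numbers.

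A library was counted as shifted where its level lay 20 or more points above the wild-type mean in a higher region, or below it in a lower region. By this count all 3 CK libraries were shifted in 305 regions (29.7%) and replicates 1 and 3 without replicate 2 in 325 (31.6%). Upstream regions of other genes had 32.1% and 32.7% in these classes. In these 325 regions the mean level was 62.7% in WYJ7, 42.9% in replicate 1, 60.9% in replicate 2 and 43.3% in replicate 3. Replicate 2 alone was shifted in 98 regions, 44 of them higher and 54 lower. In SDWT and the transgenic line all 3 libraries were shifted in 254 (44.7%) and 352 (47.8%) regions, against 45.6% and 46.5% for other genes, and no pair or single library stood out.

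In the 726 lower CK regions the mean levels were 37.6%, 46.3% and 39.0% in replicates 1, 2 and 3, against 71.0 to 71.3% in the WYJ7 libraries. The 301 higher CK regions had mean levels of 52.7%, 47.9% and 54.8%, against 24.8 to 26.1% in WYJ7. Replicate 2 was the library nearest to WYJ7 in both directions. In SDWT the 277 higher regions averaged 56.5% ± 1.11 (SD, n = 3) against 28.2% ± 0.372 in WYJ7, and the 291 lower regions 30.0% ± 0.255 against 59.9% ± 2.29. In *pOsNAR2.1-OsNAR2.1* the 568 higher regions averaged 60.1% ± 0.846 against 30.7% ± 0.644, and the 164 lower regions 27.9% ± 1.05 against 57.1% ± 1.53. These averages of the libraries of a line lay close together. They are taken over many regions sorted by the sign of the same difference. The gap to WYJ7 thus belongs to the sorting, and averaging narrows the spread. At single regions, pairs of SDWT libraries differed by medians of 9.195 to 9.375 points and pairs of transgenic libraries by 7.25 to 7.49.

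**Figure D3:**
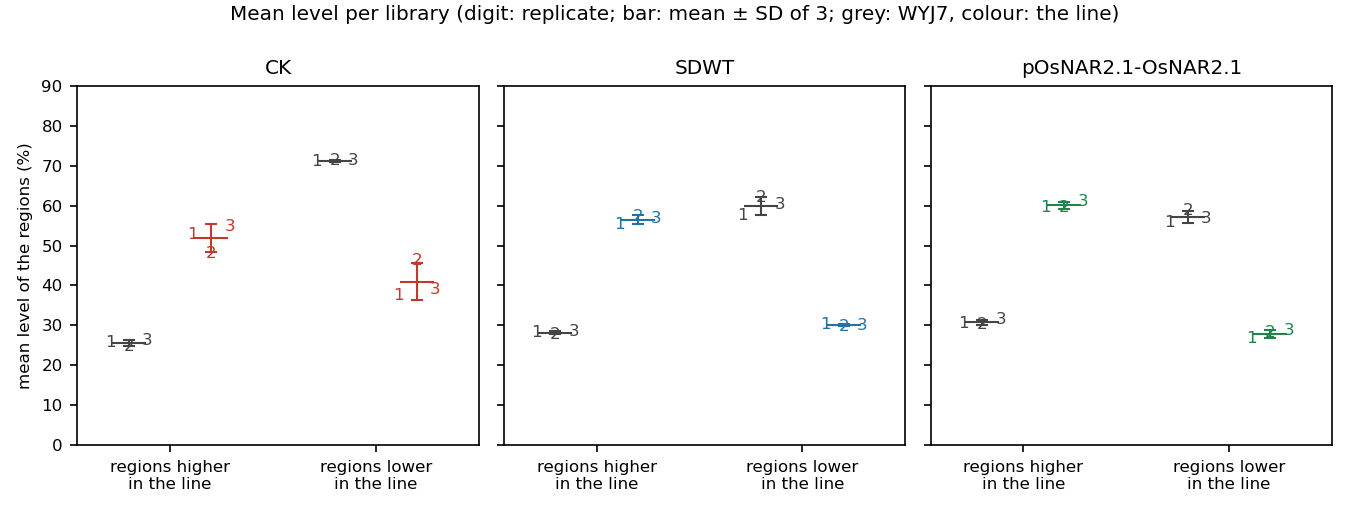
Mean level in percent over the regions that were higher or lower in each line, with 1 digit per library giving its replicate number and a bar for the mean ± SD of 3 libraries (grey, WYJ7; colour, the line). CK replicate 2 lies nearest to WYJ7 in both sets (47.9% and 46.3%), while the library averages of the other lines lie close together.

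Most regions were short. By the deposited number, the median region held 4 CpGs in each list. It was 29, 19 and 27 bp wide in CK, SDWT and the transgenic line, as it was for all CpG regions within 1 bp. Regions with 3 CpGs, the fewest found, made up 40.6%, 33.1% and 40.2%. Regions with at least 10 CpGs numbered 39 in CK (7 higher and 32 lower), 12 in SDWT (7 higher and 5 lower) and 21 in the transgenic line (14 higher and 7 lower). Among all CpG regions of the lists 38 of 144, 23 of 43 and 63 of 94 regions with at least 10 CpGs were higher. The widest of all listed CpG regions, of 873 bp and 81 CpGs, was upstream of a noncoding gene. Members were found on all 12 chromosomes. The share of higher regions ranged from 19.7% on chromosome 5 to 41.0% on chromosome 10 in CK and from 38.2% to 60.6% in SDWT. In the transgenic line it ranged from 61.7% on chromosome 12 to 84.6% on chromosome 11. On chromosome 12, 37 of 60 transgenic regions were higher, and 10 of the others lay in the stretch described next.

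A single stretch of chromosome 12 held 12 of the 39 CpG-rich regions of CK and 10 lower regions of the transgenic line. The megabase with most CK regions was on this chromosome, and its CK regions spanned 20497974 to 20697932, a stretch of 200 kb that was chosen after its values were seen. Here the CK list held 25 regions upstream of 18 noncoding genes, and all 25 were lower than in WYJ7. The transgenic list held 10 regions upstream of 7 genes there, and all 10 were lower as well, in a line in which 78.1% of the regions elsewhere were higher. The SDWT list held 0 such regions in the stretch. The stretch was not particular to noncoding genes, because all 46 CpG regions of the CK list, all 18 of the transgenic list and the 1 CpG region of the SDWT list within it were lower in the line. Whether SDWT differed from the other lines there cannot be read from the absence of listed regions.

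CK replicate 2 did not stand apart in this stretch. The 25 regions had mean levels of 40.7%, 45.1% and 38.7% in WYJ7 replicates 1, 2 and 3 and of 16.4%, 16.7% and 17.7% in CK replicates 1, 2 and 3. The 10 transgenic regions had 51.4%, 54.7% and 45.6% in WYJ7 and 18.4%, 24.1% and 17.6% in the line. The groups did not overlap in 22 of the 25 CK regions and in 9 of the 10 transgenic regions, against 61.2% and 74.6% of all CpG regions of these lists, and nothing is read from the larger share because the stretch was chosen for its values. Outside the stretch 27 CK regions held at least 10 CpGs, of which 7 were higher.

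The largest region of the stretch lay upstream of EPlOSAG00000008024 (20504042 to 20504914). It held 81 CpGs with 28.0%, 38.4% and 35.8% methylation in WYJ7 and 10.7%, 8.74% and 11.3% in CK, so that each CK library was below each WYJ7 library. A region of 74 CpGs upstream of EPlOSAG00000045543 (20619197 to 20619723) had 27.4%, 38.8% and 35.7% in WYJ7 and 5.92%, 3.54% and 21.0% in CK. Its neighbour of 20 CpGs (20618750 to 20619057) was in both lists, with 29.1%, 31.3% and 30.2% in WYJ7, 12.3%, 11.1% and 3.90% in CK and 6.84%, 13.4% and 7.93% in the transgenic line. Both lines were low at this region in every library. Upstream of EPlOSAG00000001976, which had 3 CK regions within the stretch and was among the genes with the most regions of that list, all 3 were lower by 36.1 to 41.8 points. The first of them (20538864 to 20538882, 8 CpGs) was in both lists, with 47.0%, 65.2% and 49.0% in WYJ7, 21.5%, 17.8% and 13.7% in CK and 18.8%, 20.4% and 25.4% in the transgenic line. EPlOSAG00000045598 had 3 regions in the transgenic list. At the most methylated of them (20676476 to 20676559, 6 CpGs), the WYJ7 libraries had 100%, 95.6% and 91.1% and the transgenic libraries 50.1%, 38.2% and 17.3%.

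**Figure D4:**
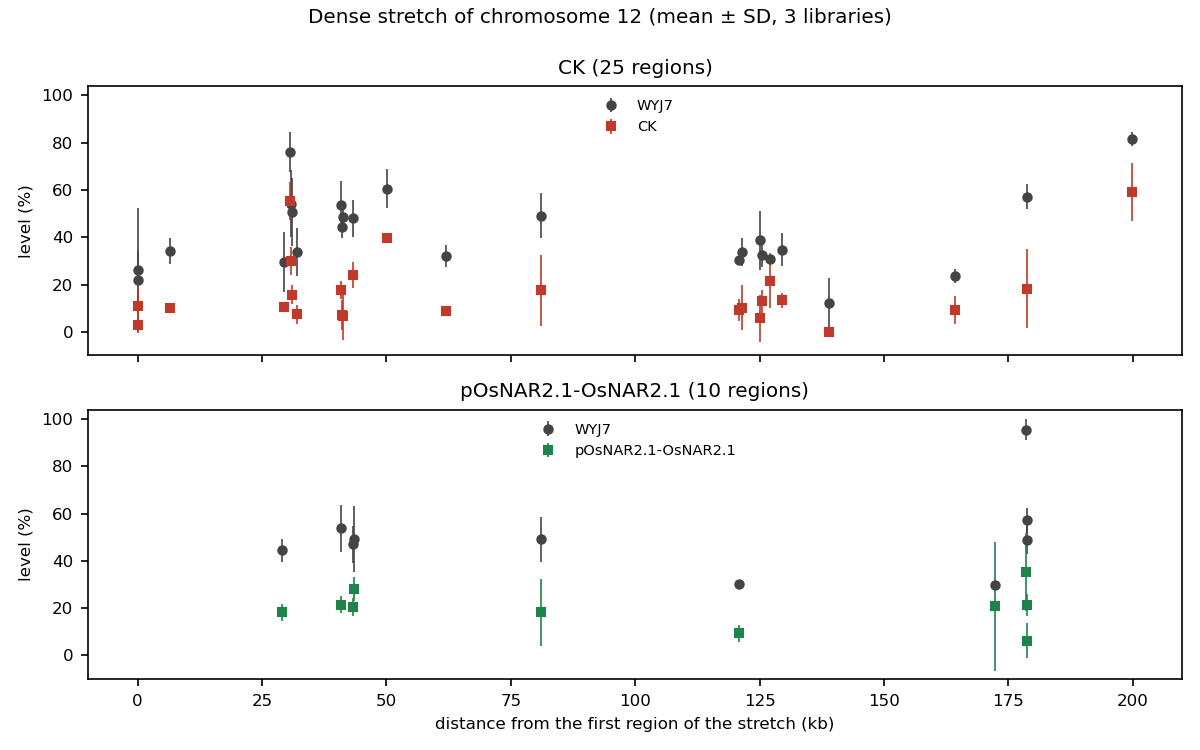
Mean ± SD level in percent (3 libraries) of each EPlOSAG upstream region along the stretch of chromosome 12, as distance in kb from the first region. All 25 CK regions (upper panel) and all 10 *pOsNAR2.1-OsNAR2.1* regions (lower panel) have a lower mean in the line than in WYJ7.

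The regions with the largest differences in each list are given next, and their size is what chose them. In CK the largest gain was upstream of EPlOSAG00000045162 (chromosome 10, 5276046 to 5276063, 3 CpGs), where WYJ7 was at 0 in all libraries and CK at 98.2%, 9.33% and 98.7%. Replicate 2 was near WYJ7 there, and the difference of 68.7 points had an SD of 51.4 among the CK libraries. Upstream of EPlOSAG00000005372 (chromosome 1, 24734934 to 24734964), WYJ7 had 7.95%, 0% and 25.5% and CK 50%, 75.9% and 98.1%. EPlOSAG00000005683 (chromosome 12, 15311545 to 15311561) had 40.3%, 0% and 0% in WYJ7 and 65.2%, 73.9% and 74.5% in CK. In these regions the libraries of a group differed widely among themselves although the groups did not overlap.

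The largest loss in CK was upstream of EPlOSAG00000046716 (chromosome 8, 21290221 to 21290240), with 79.7%, 85.8% and 83.2% in WYJ7 and 17.95%, 13.3% and 0% in CK, a difference of -72.48 points. At EPlOSAG00000024262 (chromosome 7, 11105 to 11129) the WYJ7 libraries had 93.0%, 78.5% and 91.8% and the CK libraries 0%, 48.5% and 0%. At EPlOSAG00000018101 (chromosome 8, 12279305 to 12279327) the levels were 95.1%, 85.2% and 78.4% in WYJ7 and 0%, 61.9% and 0% in CK. Replicate 2 thus kept intermediate levels at the latter regions, where the other CK libraries were listed at exactly 0. At EPlOSAG00000046716 all CK libraries were listed far below WYJ7, replicate 3 at exactly 0.

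In SDWT the largest gain was upstream of EPlOSAG00000035143 (chromosome 12, 15203384 to 15203406), with 53.1%, 0% and 0% in WYJ7 and 100%, 88.6% and 86.5% in SDWT. EPlOSAG00000014215 (chromosome 3, 23670603 to 23670659) had 0%, 13.04% and 4.60% in WYJ7 and 65.0%, 73.5% and 74.0% in SDWT. EPlOSAG00000018131 (chromosome 12, 25997753 to 25997763) had 0%, 0% and 6.86% in WYJ7 and 79.8%, 65.5% and 47.4% in SDWT. The SDWT libraries were all well above every WYJ7 library at each of these regions. The largest loss was at EPlOSAG00000045975 (chromosome 8, 26596206 to 26596221), where WYJ7 had 62.5%, 81.0% and 96.1% and SDWT was listed at 0 in all libraries, a difference of -79.88 points. EPlOSAG00000000517 (chromosome 5, 4224235 to 4224247) had 76.4%, 94.6% and 77.1% in WYJ7 and 16.7%, 0% and 9.52% in SDWT. EPlOSAG00000048338 (chromosome 3, 12250716 to 12250731) had 79.3%, 69.5% and 78.3% in WYJ7 and 15.4%, 0% and 0% in SDWT. Every SDWT library was listed far below every WYJ7 library at these regions. Each region had SDWT values of exactly 0, which may stand for values that were not obtained.

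In *pOsNAR2.1-OsNAR2.1* the largest gain of the 3 lists was found upstream of EPlOSAG00000003750 (chromosome 7, 26135507 to 26135512, 3 CpGs), with 0%, 0% and 21.4% in WYJ7 and 100% in each transgenic library, a difference of 92.9 points. EPlOSAG00000004695 (chromosome 4, 18800529 to 18800546) had 0%, 29.6% and 41.6% in WYJ7 and 98.9%, 95.8% and 100% in the transgenic line. At EPlOSAG00000016208 (chromosome 5, 8776072 to 8776089) WYJ7 was at 0 in all libraries and *pOsNAR2.1-OsNAR2.1* at 57.1%, 78.0% and 87.5%. At the first 2 of these the line was near complete methylation in every library. The largest losses were at EPlOSAG00000027119 (chromosome 5, 3641697 to 3641729), with 96.3%, 81.7% and 72.6% in WYJ7 and 0%, 14.1% and 9.38% in the transgenic line, at EPlOSAG00000005476 and at EPlOSAG00000018791. EPlOSAG00000005476 (chromosome 2, 17626570 to 17626588) had 89.2%, 63.2% and 63.6% in WYJ7 and was at 0 in each transgenic library. EPlOSAG00000018791 (chromosome 1, 27140605 to 27140632) had 85.6%, 71.4% and 91.2% in WYJ7 and 23.3%, 0% and 16.7% in the transgenic line. No transgenic library was listed near the WYJ7 range at any of the 3, and each of the 3 had transgenic values of exactly 0.

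At the other end, some listed regions showed almost no difference in their library levels. The CK regions nearest to 0 were those of EPlOSAG00000034063 (0.08 points) and EPlOSAG00000029812 (0.35 points), and the SDWT regions nearest to 0 were those of EPlOSAG00000046335 (0.75 points) and EPlOSAG00000017257 (0.94 points). In *pOsNAR2.1-OsNAR2.1* the regions of EPlOSAG00000031451 and EPlOSAG00000050740 were among the 5 at 0 in all 6 libraries. The libraries of the groups overlapped at each of these regions. What placed them in the lists cannot be seen in the level columns.

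Most genes had 1 listed upstream region. Of 981 genes in the CK list 40 had 2 or more regions, as had 16 of 552 in SDWT and 25 of 709 in *pOsNAR2.1-OsNAR2.1*. EPlOSAG00000044961 on chromosome 2 had the most, with 4 in CK, and they did not share 1 direction. At 21882635 to 21882669 the levels were 63.0%, 0% and 32.9% in WYJ7 and 61.4%, 100% and 71.4% in CK, a higher mean with overlapping libraries. At the other 3 regions, between 21883263 and 21883630, CK was lower by 33.7 to 49.8 points and the groups did not overlap. SDWT held a like case. There EPlOSAG00000001934 (chromosome 9) had a region with 27.7%, 40.7% and 34.8% in WYJ7 and 42.8%, 46.9% and 47.9% in SDWT (17431323 to 17431391). About 1 kb away, at 17432370 to 17432404, the same gene had 72.0%, 81.1% and 81.4% in WYJ7 and 17.8%, 30.8% and 28.7% in SDWT. Regions upstream of 1 noncoding gene could therefore differ in opposite directions. By contrast, both SDWT regions of EPlOSAG00000004955 (chromosome 11) and all 3 transgenic regions of EPlOSAG00000028947 (chromosome 7) were higher than WYJ7, the latter by 23.7 to 41.2 points.

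Altogether 283 genes had a listed upstream region in at least 2 lines and 28 in all 3. The lists share the WYJ7 libraries, so these numbers are a description of the lists and not a result. At 20 positions the regions of the 3 lists overlapped, so that levels in all 12 libraries can be set side by side. The 3 lines were lower than WYJ7 at 10 of them, higher at 6 and of mixed direction at 4. At 1 of the 6, EPlOSAG00000017257, the CK and SDWT signs turned when 1 library was left out.

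At 8 of the 10 lower positions all 9 line libraries were at 0, and WYJ7 stood between 0 and 53.0%. EPlOSAG00000035539 (chromosome 6, 24446263 to 24446278) had the highest levels in WYJ7, with 53.0%, 42.3% and 47.0%. The longest was the region of EPlOSAG00000007914 (chromosome 7, 17654469 to 17654586 in the CK list), where 15 CpGs had 15.1%, 45.7% and 5.65% in WYJ7. The WYJ7 libraries differed widely at some of these, as at EPlOSAG00000029271 (chromosome 4, 31674994 to 31675005) with 9.57%, 15.7% and 51.8%. The others were EPlOSAG00000028801, EPlOSAG00000033105, EPlOSAG00000034992, EPlOSAG00000042458 and EPlOSAG00000052088, and at EPlOSAG00000033105 and EPlOSAG00000042458 WYJ7 replicate 1 was also at 0. The remaining lower positions were EPlOSAG00000011649, at or near 0 in every line library, and EPlOSAG00000052824, where the line means were 43.7%, 75.4% and 72.0% in CK, SDWT and the transgenic line.

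At the positions where the 3 lines were higher, most line libraries were highly methylated. EPlOSAG00000009076 (chromosome 10, 22969696 to 22969710) had 25.9%, 53.4% and 51.8% in WYJ7. Its levels were 95.2%, 86.4% and 92.8% in CK, 87.0%, 81.2% and 88.3% in SDWT and 75.4%, 85.5% and 83.6% in the transgenic line. Every line library lay above every WYJ7 library there. EPlOSAG00000033768 (chromosome 2, 24107126 to 24107144) had 70.6%, 47.1% and 55.3% in WYJ7 and line means of 83.1% in CK, 80.9% in SDWT and 86.1% in the transgenic line. EPlOSAG00000036471, EPlOSAG00000027170 and EPlOSAG00000038981 were likewise higher in each line, with overlapping libraries in at least 1 list. EPlOSAG00000017257 was higher by 40.9 points in *pOsNAR2.1-OsNAR2.1*, but by 5.34 points in CK, where 1 of 3 libraries was above the WYJ7 mean (36.8%, 89.7% and 34.6% against 48.4%), and by 0.94 points in SDWT. With 1 library left out, the CK and SDWT differences ranged from -12.64 to 14.9 and from -9.34 to 7.25 points.

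The mixed positions set the lines against each other at identical or nearly identical positions. At EPlOSAG00000038764 (chromosome 5, 2017656 to 2017667, 4 CpGs) WYJ7 had 61.9%, 54.4% and 71.4%. CK had 98.4%, 84.3% and 94.7% and *pOsNAR2.1-OsNAR2.1* 93.2%, 96.1% and 93.3%, whereas SDWT had 12.8%, 0% and 12.5%. SDWT thus stood apart from the line that descends from the same regenerated plant. At EPlOSAG00000009650 (chromosome 11, 8452729 to 8452735) WYJ7 had 12.5%, 9.76% and 8.33% and CK was at 0. SDWT had 39.2%, 41.1% and 48.5% and *pOsNAR2.1-OsNAR2.1* 74.0%, 70.8% and 55.1% there. EPlOSAG00000019023 (chromosome 4, 5586028 to 5586042) had the same order, with means of 0% in CK, 13.2% in WYJ7, 32.4% in SDWT and 53.6% in the transgenic line, although the SDWT and transgenic libraries overlapped. At EPlOSAG00000038631 (chromosome 5, from 26169552) the mean was 5.26% in CK and 83.8% in the transgenic line, and the SDWT libraries were scattered at 63.5%, 0% and 27.4%.

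**Figure D5:**
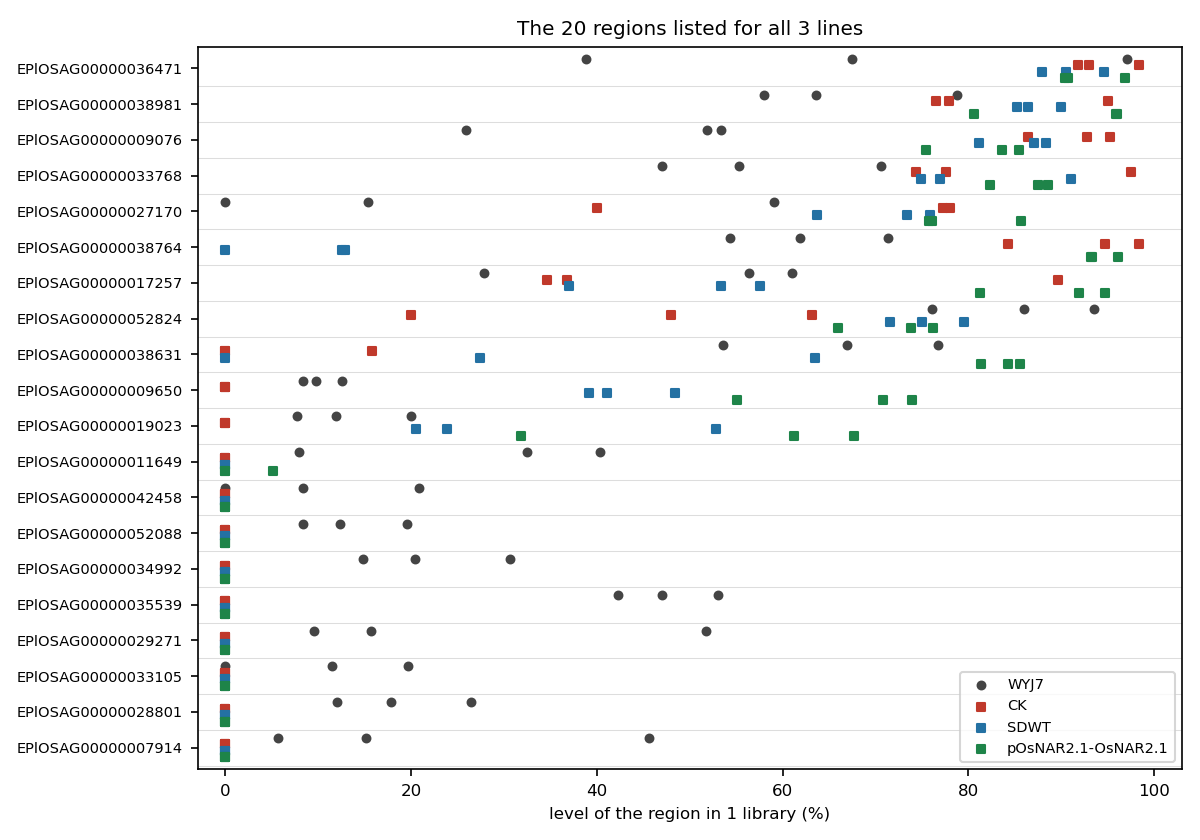
Level in percent of each library (circles, WYJ7; squares, the lines) at the 20 positions listed for all 3 lines, ordered by the mean of the lines. At 8 of them all 9 line squares lie at 0, and at EPlOSAG00000038764 SDWT lies at or below 12.8% while CK and *pOsNAR2.1-OsNAR2.1* lie at or above 84.3%.

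Comparing the lists in pairs, every library of 1 line was above the WYJ7 mean and every library of the other below it at 7 overlapping regions of CK and SDWT, 22 of CK and the transgenic line, and 18 of SDWT and the transgenic line. At 17 of the last 18, *pOsNAR2.1-OsNAR2.1* was the higher line, and 12 of the 18 had identical positions in both lists. The transgenic list as a whole leaned to higher levels, with 77.1% of its members higher against 48.8% in SDWT and 29.3% in CK. The corresponding counts for other regions are not given here, so nothing is read from which line was higher. The WYJ7 means at these 18 regions ranged from 8.29% to 80.6% with a median of 44.6%. EPlOSAG00000016208, whose upstream region at 8776072 was named above, had 3 regions in the transgenic list, and 2 of them were also listed in another line. At 8774652 to 8774690 WYJ7 had 12.5%, 39.9% and 43.6%, CK was at 0 in all libraries, and *pOsNAR2.1-OsNAR2.1* had 76.7%, 40.9% and 70.6%. At 8775929 to 8775959 SDWT and the transgenic line were both higher than WYJ7, by 18.3 and 11.6 points, with overlapping libraries. Leaving out 1 library gave 12.5 to 26.5 points in SDWT and 2.22 to 23.3 points in the transgenic line at this region, the last without transgenic replicate 1.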

How the data were processed

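Whole-genome bisulfite sequencing was performed on 12 seedling libraries, 3 for the wild type WYJ7 and 3 for each line. Immunoprecipitated samples of another background were left out. By the study's methods, the authors mapped reads to IRGSP-1.0 with Bismark 0.9.0 (also named in the submitters' processing notes), kept uniquely mapped reads and used methylKit with eDMR to call the regions. Sites with a read depth below 5 were removed for the study's coverage values, and a depth filter for the region calls is not stated. The deposited level of a region in each library is a percent, the mean of its cytosines as the authors calculated it. If shallow sites were also removed before the regions were called, a region can be left with few cytosines. Depth per region is unknown. The width and the number of CpGs are other deposited values, used as they are. The lists also hold the authors' own differences, numbers of differential cytosines, p-values, q-values and labels, none of which was used. Each region carries 1 gene identifier, and 5 members also lay inside a listed interval of another gene.

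Means, SDs and counts were computed with pandas and checked on simulated data. No test was applied, because regions were listed for the contrast described. Members and lists were chosen with earlier results of these data known. The named regions are, per line and direction, the 3 with the largest difference, the 2 nearest to 0 in each list, the 2 genes with most regions in each list (ties by identifier), and genes in at least 2 lists. Of the 283 such genes only some were given values, a choice made after seeing the values. They had overlapping regions in all lists or lay in the stretch of chromosome 12. Others had every library of 2 lines on opposite sides of the WYJ7 mean. Alternatives were 1 region per gene, merging within 200 bp, at least 5 CpGs, a difference of at least 30 points, non-overlapping libraries, medians, and leaving out each library.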

Additional observations from a re-analysis of the deposited data

Results flagged for a closer look

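At several positions 2 lines differed from WYJ7 in opposite directions in every library. Values are given as the mean of the line named second minus that of the line named first, in percentage points, and none of these differences was tested. Groups of 3 libraries are too small for a check of single outlying libraries.

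CK and SDWT differed in this way at EPlOSAG00000009650 (42.9), EPlOSAG00000019023 (32.4) and EPlOSAG00000038764 (-84.05), of which SDWT was higher at the first 2. CK and *pOsNAR2.1-OsNAR2.1* differed at EPlOSAG00000009650 (66.6), EPlOSAG00000019023 (53.6), EPlOSAG00000016208 (62.7), EPlOSAG00000044961 (88.4) and EPlOSAG00000038631 (78.5), with *pOsNAR2.1-OsNAR2.1* higher at each. At EPlOSAG00000044961 (chromosome 2, 21883263 to 21883288 in the CK list) the CK libraries had 0%, 0% and 17.8% and the *pOsNAR2.1-OsNAR2.1* libraries 97.0%, 94.8% and 91.3%, against 40.3%, 74.96% and 52.0% in WYJ7.

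SDWT and *pOsNAR2.1-OsNAR2.1*, which descend from 1 regenerated plant, differed at EPlOSAG00000038764 (85.8) and in the reverse direction at EPlOSAG00000004955 (-65.79). At EPlOSAG00000004955 (chromosome 11, 22638542 to 22638565) SDWT had 95.6%, 97.7% and 98.7% and *pOsNAR2.1-OsNAR2.1* 33.3%, 29.6% and 31.7%, with WYJ7 in between at 78.4%, 81.1% and 66.6%. Among regions with identical positions the largest gap was at EPlOSAG00000044296 (96.4; chromosome 2, 13316705 to 13316713), where SDWT was at 0 in all libraries and *pOsNAR2.1-OsNAR2.1* had 95.2%, 97.2% and 96.8%, while the WYJ7 libraries were spread over 0%, 41.9% and 69.1%. Others with large gaps at identical positions, beside EPlOSAG00000038764, were EPlOSAG00000000173 (88.1; chromosome 8), EPlOSAG00000039013 (85.0; chromosome 11), EPlOSAG00000011914 (81.2; chromosome 11) and EPlOSAG00000043524 (72.5; chromosome 10), at each of which SDWT was at 0 and *pOsNAR2.1-OsNAR2.1* at or above 60.0% in every library. The WYJ7 libraries at EPlOSAG00000000173 had 28.6%, 20.6% and 55.1%, and those at EPlOSAG00000011914 had 39.8%, 21.1% and 34.5%. At EPlOSAG00000043524 the WYJ7 libraries had 19.25%, 12.2% and 0%, so that WYJ7 replicate 3 was listed at the SDWT level.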

How the results depend on the processing

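The shares of higher regions kept their direction in CK and the transgenic line under all alternatives run. Leaving out each library in turn gave 28.6 to 29.3% higher in CK, 48.1 to 48.6% in SDWT and 75.8 to 77.1% in the transgenic line. With all libraries the median difference was -23.09 points in CK, -9.83 in SDWT and 23.87 in the transgenic line. With 1 library left out it lay between -23.06 and -19.99 points in CK, -9.21 and -6.31 in SDWT and 22.8 and 24.2 in the transgenic line. The number of non-overlapping regions then lay between 640 and 863, 416 and 454, and 577 and 610. The SDWT median was 26.79 points among higher and -26.5 among lower regions, and 21 of 568 differences were below 10 points. A median over all SDWT regions therefore falls where few regions lie. In SDWT the balance turned with at least 5 CpGs (53.3% higher, median difference 13.01 points), and the cause was not tested. That alternative also gave 72.8% higher and a median of 21.4 points in the transgenic line, and left 179, 92 and 163 non-overlapping regions in CK, in SDWT and in the transgenic line. The numbers of regions kept by an alternative, and the same counts over all CpG regions, are not given here. Counts of non-overlapping regions under the alternatives thus do not show whether non-overlap became rarer or more frequent. With a difference of at least 30 points, 24.7% of CK regions were higher, the medians were -34.72, -30.59 and 34.9 points, and 334, 211 and 293 regions did not overlap, since fewer regions were counted. Among non-overlapping regions 24.3% were higher in CK, and the medians were -14.84 points in SDWT and 26.5 in the transgenic line. Medians of libraries in place of means gave -7.42 points in SDWT and 23.1 in the transgenic line. The last 2 alternatives were chosen after seeing the data. With WYJ7 libraries within 20 points the medians were -1.93 points in SDWT and 22.7 in the transgenic line, with 363 non-overlapping regions there. Leaving out the stretch of chromosome 12 gave 30.0% higher in CK and 78.1% in the transgenic line, above the values with 1 library left out. The medians were then -23.03 and 24.1 points with 584 and 547 non-overlapping regions, and the SDWT values did not change. The sign of 5 of 99 named differences turned when 1 library was left out: EPlOSAG00000034063 (-9.32 to 14.8 points) and EPlOSAG00000029812 (-3.77 to 7.57) in CK, EPlOSAG00000046335 (-2.23 to 4.72) in SDWT, and EPlOSAG00000017257 in CK (-12.64 to 14.9) and SDWT (-9.34 to 7.25). No feature cell named another feature beside upstream, so that alternative gave no value. No paired analysis was possible because the results come from no test.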

Other observations

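The position of the members within the upstream intervals was not used in the comparisons. The deposited intervals of the 2332 members had a median length of 2001 bp, and 61.3% of them were at least 2000 bp long, as were 60.2% of those of other genes. Of the members 361 (15.5%) had their centre in the lowest of 10 equal parts of the interval by coordinate and 244 (10.5%) in the highest, while the parts between held 179 to 239 each. The upstream regions of other genes had 198 of 2560 (7.73%) and 216 (8.44%) in the same outer parts. The strand of the genes was not used here, so these ends cannot be assigned to the side of the gene, and regions of the 3 lists that overlap are counted in each list.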
